A study of Mus musculus with 23 samples.

Results

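Wild-type mouse macrophages exposed to lipopolysaccharide and collected at the time point labelled T16 were compared with untreated wild-type macrophages labelled T0. The libraries were chosen by their group labels: 2 carry WT_T16 and 3 carry WT_T0, 5 of the 23 libraries of the series, and all expressed genes were tested on the raw counts. The series measured polyadenylated RNA of bone marrow-derived macrophages (BMDMs, macrophages grown from marrow cells), wild type (WT) or knockout (KO) for Stk40, at T0, T6, T16 and T32. The design text of the series places these times after lipopolysaccharide (LPS) treatment. The T0 libraries are the untreated cells, and the labels name no unit for the times. No source used here gives the strain, sex or age of the mice or the growth medium. Nothing in the labels says whether replicates came from separate mice or separate cultures, so the p-values below measure the spread between these libraries, which may be technical in part. Libraries with and without Y-linked transcripts, which occur in both groups, cannot come from 1 animal.

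LPS is a component of the outer membrane of Gram-negative bacteria and is sensed by Toll-like receptor 4 (Tlr4) together with Cd14. The receptor signals through the adaptor Myd88 to NF-kB and MAP kinases, which drive inflammatory cytokine genes, and through Ticam1 (TRIF) to Irf3, which drives interferon-beta. Secreted interferon then acts through its own receptor on a large set of antiviral genes.

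The libraries held 20224744 to 28993987 counted reads at T0 and 32733296 and 28570725 at T16 (replicates 1 and 2). Levels are given as CPM (counts divided by the library's size and scaled to a common total) scaled by the trimmed mean of M-values (TMM), with libraries in the order of their replicate numbers, and fold changes as log2 ± SE from edgeR's quasi-likelihood test. A gene was called, and is said to have risen or fallen, when its p, adjusted by the Benjamini-Hochberg method over the 15782 genes tested, was under 0.05. Over log2 CPM, the 2 T16 libraries correlated at 0.966 and the T0 libraries with each other at means of 0.982 to 0.985. T16 replicate 2 had a mean correlation of 0.96 with the other T16 libraries of either genotype, against 0.977 for replicate 1. The chi-square per degree of freedom was 188.14 for the T16 pair and 19.15 to 30.13 for pairs of T0 libraries, so no library was a copy of another. T0 replicate 2 and T16 replicate 2 held Y-linked transcripts (142.7 and 42.81 CPM of the library total, summed) and 0.1 and 0.14 CPM of Xist, whereas the other 3 held 564.2 to 708.91 CPM of Xist and at most 0.07 of the Y-linked genes. In T16 replicate 2, the 10 genes with the most reads took 17.39% of the counts, against 12.37% in T16 replicate 1 and 11.24 to 11.66% at T0. Its state of Y-linked transcripts and its distance from replicate 1 cannot be told apart with 2 libraries.

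Gene size also separated the T16 libraries. Among 9379 genes of at least 5 CPM, divided into 4 equal bins by the gene size of the deposited table, replicate 1 had a median log2 difference from the T0 mean of -0.29 in the bin of smallest genes and 0.29 in the bin of largest genes. Replicate 2 ran the other way, at 0.21 and -0.34. Replicate 1 shared its direction with the 3 T16 libraries labelled KO against their own T0 mean (-0.26 to -0.2 for small genes and 0.17 to 0.22 for large ones). Untreated libraries also held trends of both directions against the T0 mean of their genotype. Their Spearman correlations with size ran from -0.311 to 0.318, beside 0.257 and -0.243 for T16 replicates 1 and 2. Their bin medians were smaller, such as 0.073 and -0.029 in WT T0 replicate 1 and -0.125 and 0.131 in KO T0 replicate 1. Across genes the difference between the 2 libraries had a Spearman correlation of -0.65 with size, given as a description since genes are not replicates. Averaged over both libraries, the fold change of T16 against T0 was flat, with bin medians of -0.01 to 0.06. Genes whose T16 levels differ widely between the 2 libraries are given with each library, and the counts below are repeated without each of them. The part of this trend in single fold changes was not tested gene by gene, and a fit with each library's trend removed gave 3159 genes that rose and 3129 that fell.

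**Figure D1:**
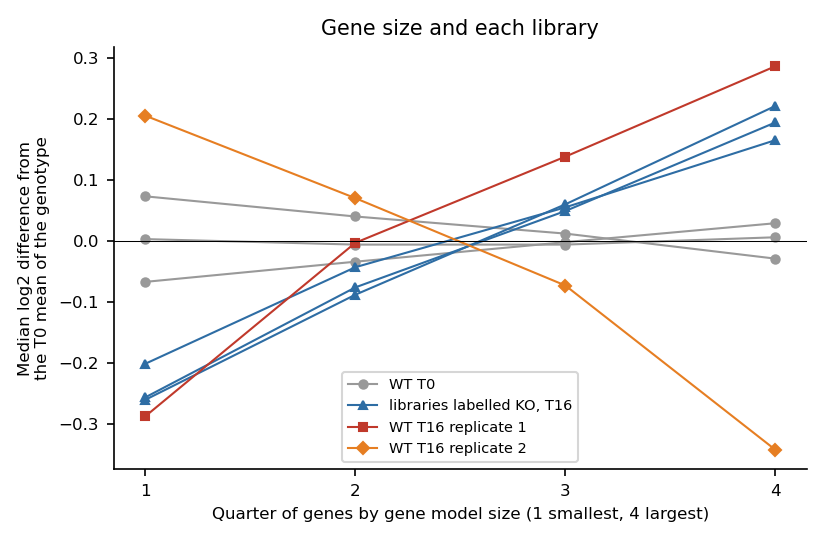
Median log2 difference of each library from the T0 mean of its genotype (vertical axis) in 4 equal bins of genes ordered by size (horizontal axis); each line is 1 library. WT T16 replicate 1 rises from -0.29 to 0.29 with size, as the T16 libraries labelled KO do on a smaller scale, while replicate 2 falls from 0.21 to -0.34.

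Of the 15782 genes, 2970 rose at T16 (18.8% of the genes tested) and 2710 fell (17.2%), so 36% were called. At least 2-fold changes were reached by 1721 genes that rose (10.9%) and 1614 that fell (10.2%). The median log2 fold change of all genes was -0.02. Scaling by library totals in place of TMM moved that median to -0.45 and gave 1593 genes that rose and 5639 that fell, with 143 of the 5680 called genes changing sign. Directions below are relative to the TMM scaling. Counts of list members below stand beside the 18.8% and 17.2% of all genes tested that rose and fell. With library totals, more members fell than rose in the lists of TCA cycle genes (3 rose and 12 fell), MAP kinase and AP-1 genes (5 and 9), lectins and scavenger receptors (6 and 8), iron handling (7 and 9), alternative activation (5 and 7), oxidative phosphorylation (2 and 9) and DNA replication (1 and 8). Without T16 replicate 1, 2590 genes rose and 2711 fell, and without replicate 2, 2679 rose and 1893 fell. A total of 1619 of the 2970 genes that rose (54.5%) and 1189 of the 2710 that fell (43.9%) were called in the same direction whichever of the 2 was left out.

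Saa3, an acute-phase serum amyloid gene (ENSMUSG00000040026, chr7:46711998-46715700 on GRCm38) had the largest log2 fold change among named genes detected in every library. It stood at 31.6, 34.8 and 15.3 CPM at T0 and 21828 and 47811 CPM at T16, a log2 fold change of 10.32 ± 0.64 (edgeR adjusted p = 3.5e-10). Both T16 libraries lay far above all 3 T0 libraries, and Saa3 took more reads than any other gene in replicate 2. The chemokine gene Ccl5 (chr11:83525778-83530518), which attracts T cells and monocytes, stood at 36.4, 32.9 and 14.9 CPM at T0 and 6534 and 17860.5 CPM at T16, a change of 8.77 ± 0.46. Saa3 and Ccl5 were both higher in replicate 2 than in replicate 1, and the changes without replicate 2 were 9.65 and 7.87. Among the 15 largest increases by the naming rule were also chemokines of the interferon-inducible group, Cxcl11 (8.41 ± 0.76) and Cxcl9 (7.19 ± 0.68), the itaconate-producing enzyme Acod1 (7.04 ± 0.36), the alternative complement component Cfb (7.01 ± 0.46), the formyl peptide receptor Fpr1 (6.96 ± 0.49) and the prostaglandin E synthase Ptges (6.65 ± 0.25). Il1b (6.33 ± 0.39), the activating receptor gene Tarm1 (7.67 ± 0.38), the Ras activator Rasgrp1 (6.62 ± 0.24), the cystatin Cst7 (6.14 ± 0.38) and the interferon-inducible Ifi205 (6.10 ± 0.53), which has close paralogs, completed that group together with Arg1 and Gm15056. Gm15056, a predicted gene, had 0 counts in all 3 T0 libraries and 1470 counts over the T16 libraries (13.6 and 36.4 CPM), at least 766-fold higher with 3 counts over the T0 group taken as the floor.

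The 15 largest decreases were led by Slco2b1, which encodes an organic anion and prostaglandin transporter (chr7:99657804-99711340). It had 28.5, 28.4 and 23.8 CPM at T0, 2624 counts in all, and 1 count over both T16 libraries, a ratio of 1680 (exact binomial 95% interval 301 to 66300, counting error only). Hpgd, which inactivates prostaglandins, stood at 10.4, 17.6 and 10.7 CPM at T0 and 0.0817 and 0.0375 CPM at T16 (-7.60 ± 0.95). Several of the others encode cell surface receptors: Gpr34 (-5.96 ± 0.84, with 0.299 and 0 CPM at T16, so that the value was -11.33 without replicate 1), the lectin Clec10a (-5.11 ± 0.49), Gprc5c (-5.08 ± 0.37), Cd28 (-4.82 ± 0.48), Ramp1 (-4.48 ± 0.48), a subunit of the calcitonin gene-related peptide receptor, and Gpr155 (-4.26 ± 0.29). Sult1a1, a sulfotransferase (-5.30 ± 0.48), Ltc4s, the leukotriene C4 synthase (-4.19 ± 0.43), the kinase Matk (-4.19 ± 0.35), Fam214a (-4.17 ± 0.30) and the calcium-binding S100a4 (-4.03 ± 0.57) also fell. S100a4 stood at 239, 217 and 299 CPM at T0 and 12.6 and 18.2 CPM at T16. The noncoding Gm5086 (-6.29 ± 0.44) and Gm15513 (-4.84 ± 0.44) fell too, and Gm15513 lies within an intron of another gene, whose reads cannot be told apart from its own without strand. All 30 genes were also called in the same direction with either T16 library left out.

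**Figure D2:**
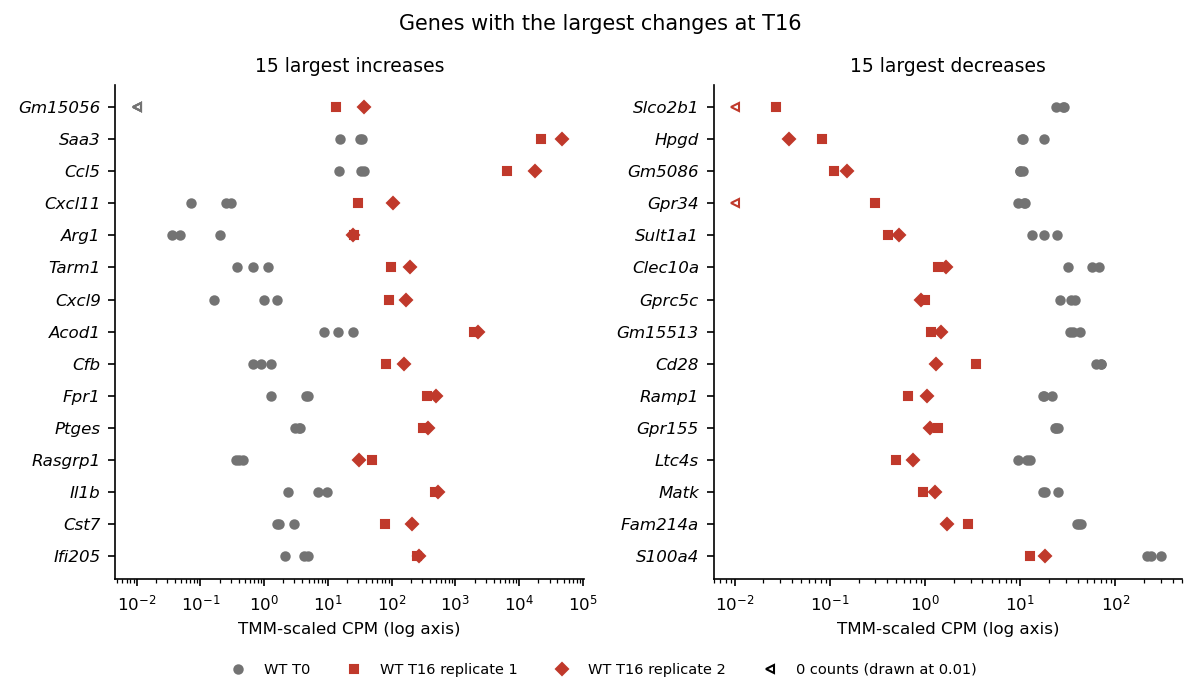
TMM-scaled CPM on a log axis for the 15 genes with the largest increases (left) and the 15 with the largest decreases (right); each point is 1 WT library, and open triangles mark 0 counts, drawn at 0.01. The naming rule required the 2 T16 libraries to lie on 1 side of the 3 T0 libraries. Of all genes tested, 26.9% had both T16 libraries above and 28.9% below all T0 libraries. T16 levels run from Saa3 at 21828 and 47811 CPM to Slco2b1 at 1 count over both libraries.

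Inflammatory ligands rose widely. Of 30 cytokine genes tested, 15 rose and 2 fell, with a median log2 change of 1.75. Il1b, the secreted pyrogenic cytokine, stood at 9.59, 7.06 and 2.4 CPM at T0 and 474 and 541 CPM at T16, and Il1a at 1.58, 0.502 and 0.643 CPM at T0 and 68.3 and 35.5 CPM at T16 (5.86 ± 0.51). The natural antagonist of their receptor, Il1rn, rose too, at 49.9, 29.4 and 36.4 CPM at T0 and 1485 and 1838 CPM at T16 (5.43 ± 0.34). Tnf, at 28.1, 25.8 and 26.3 CPM at T0 and 162 and 228 CPM at T16, changed by 2.87 ± 0.26. Il6 stood at 0.343, 0.0359 and 0.0238 CPM at T0 and 4.74 and 1.76 CPM at T16 (4.70 ± 0.54). Il27 (8.14 and 32 CPM at T16, 3.56 ± 0.46) and the interferon-beta gene Ifnb1 (1.09 and 2.93 CPM, 3.16 ± 0.54) were higher in replicate 2 than in replicate 1, and Il27 changed by 2.27 without it. The call of the anti-inflammatory Il10 rested on single libraries: it stood at 17.5, 18.2 and 9.45 CPM at T0 and 14.5 and 54.3 CPM at T16, a change of 1.19 ± 0.46 (edgeR adjusted p = 0.049) that was -0.04 without T16 replicate 2 and was lost on leaving out any 1 of the T0 libraries (0.95 to 1.35). Il12b, a subunit of interleukin-12, was at most 0.599 CPM in these libraries, with a change of 1.91 ± 0.98 that was not called (edgeR adjusted p = 0.14).

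Of 12 CC chemokine genes, which attract monocytes and T cells, 9 rose and 1 fell (median 2.02), and of 13 CXC genes 7 rose and 2 fell (median 1.25). Besides Ccl5, the monocyte attractants Ccl2 (7.91, 16.6 and 9.64 CPM at T0 and 188 and 495 CPM at T16), Ccl7 (184 and 685 CPM at T16, 5.61 ± 0.51) and Ccl12 (80.2 and 337 CPM at T16, 5.53 ± 0.62) led the first group. T16 replicate 2 exceeded replicate 1 for each, by 1.40 for Ccl2, 1.90 for Ccl7 and 2.07 for Ccl12 on the log2 scale, and also for Ccl4 (115 and 472 CPM, 2.95 ± 0.46, and 1.61 without replicate 2). Ccl8 (65.1 and 227 CPM) was called at 1.75 ± 0.50 with both libraries and stood at 0.58 without replicate 2. Cxcl10, a ligand of Cxcr3, stood at 86.6, 155 and 42.3 CPM at T0 and 607 and 1352 CPM at T16 (3.37 ± 0.51), and the neutrophil attractant Cxcl1 at 3.77, 2.22 and 1.98 CPM at T0 and 20.8 and 9.31 CPM at T16 (2.52 ± 0.46).

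Among receptors, 11 of 21 chemoattractant receptor genes rose and 6 fell. The formyl peptide receptors Fpr1 (4.52, 4.8 and 1.29 CPM at T0 and 365 and 504 CPM at T16) and Fpr2 (179.6 and 242 CPM at T16, 5.54 ± 0.35) and the chemerin-binding Ccrl2 (3.14 ± 0.35) rose, whereas Cxcr4, which retains cells in the marrow, fell from 199, 169 and 243 to 25.3 and 11.1 CPM (-3.48 ± 0.40). Of 27 Toll-like receptor and adaptor genes, 12 rose and 1 fell (8 and 2 without T16 replicate 1). Irak3, an inhibitory kinase-like protein of the pathway, was the largest of them at 33.1, 29.1 and 21.8 CPM at T0 and 238 and 194 CPM at T16 (2.95 ± 0.18). Tlr4 itself stood at 48, 43.7 and 50.6 CPM at T0 and 55.8 and 29 CPM at T16 and was not called (-0.16 ± 0.27). Its coreceptor Cd14 rose by 1.18 ± 0.17, the nucleic acid sensor Tlr3 by 1.93 ± 0.27, and Tlr9 by 2.30 ± 0.80, a call that was lost without T0 replicate 1 or 3 or either T16 library (1.88 to 2.62). Tlr8, an endosomal RNA sensor, showed 185 and 34.3 CPM in the 2 T16 libraries against 26.1, 28.1 and 35.6 at T0 and was not called (1.88 ± 0.75), while without replicate 2 it was (2.63). Pik3ap1, a signalling adaptor of these receptors, showed a similar gap (988 and 375 CPM) and was called at 2.53 ± 0.56, but not without replicate 1 (1.67).

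Of 24 NF-kB subunits and inhibitors, 15 rose and 0 fell in edgeR's test (1 fell at an unadjusted p under 0.05, and 0 with DESeq2). The list held 15 that rose and 0 that fell without T16 replicate 2 and 12 and 2 without replicate 1, and 10 of the 15 were called with either left out. Nfkbie (25.2, 26 and 19.5 CPM at T0 and 103 and 143 CPM at T16), Tnip1 (2.33 ± 0.19) and Traf1 (2.84 ± 0.24) changed most, followed by Tnip3 (1.75 ± 0.19). The inhibitor Nfkbia stood at 192, 189.8 and 147 CPM at T0 and 377 and 502 CPM at T16 (1.31 ± 0.26) and the deubiquitinase Tnfaip3 at 72.7, 68.5 and 66.8 CPM at T0 and 191 and 126 CPM at T16 (1.19 ± 0.20). Of 25 MAP kinase phosphatase and AP-1 genes, 7 rose and 5 fell, including the factors Batf (3.26 ± 0.32) and Batf2 (2.91 ± 0.30) among the former and Egr2 (-3.02 ± 0.35) among the latter; 3 fell without T0 replicate 2 or T16 replicate 1. Of 10 regulators of cytokine mRNA decay, 3 rose and 3 fell, but 0 of those 3 falls were called with either T16 library left out (0 fell without T16 replicate 2 and 1 without T0 replicate 3). The endonuclease Zc3h12a rose by 2.36 ± 0.41, whereas its relative Zc3h12c (41.1 and 7.54 CPM at T16) rose with replicate 1 only, at 0.39 without it.

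The interferon-induced genes rose almost as a whole. Of 43 antiviral genes tested, 40 rose and 0 fell in edgeR's test, at an unadjusted p under 0.05 and with DESeq2 (median 2.28), and 39 of those 40 were called whichever T16 library was left out. Beside them, 18.8% of all genes tested rose. Summed over the list, the level was 6559, 8152 and 5409 CPM at T0 and 27494 and 34209 CPM at T16. Isg15, a ubiquitin-like modifier, stood at 98.8, 170.3 and 73.3 CPM at T0 and 1070.4 and 2199 CPM at T16 (3.84 ± 0.37). Isg20, a nuclease, rose by 4.84 ± 0.36, the oligoadenylate synthetase-like Oasl1 by 4.0 ± 0.26, the RNA-binding Ifit2 by 3.86 ± 0.54 and the tethering protein Bst2 by 2.29 ± 0.39. Dtx3l was the member with the widest gap between the T16 libraries (94 and 13.5 CPM, against 7.98, 10.3 and 6.47 at T0); it was called at 2.71 ± 0.80, but not without replicate 1 (0.71). Of 19 guanylate-binding proteins and immunity-related GTPases, which attack vacuoles of intracellular pathogens, 17 rose and 1 fell (median 2.61). Gbp2 stood at 96.6, 126 and 63.3 CPM at T0 and 977 and 1237 CPM at T16 (3.54 ± 0.36), Gbp5 rose by 3.40 ± 0.45, Gbp4 by 3.69 ± 0.34 and Tgtp2 by 4.15 ± 0.47; these families hold close paralogs, so the split of reads between members is uncertain.

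Among regulators of interferon signalling, 16 of 28 IRF, STAT and SOCS genes rose and 1 fell. The factor Irf7 stood at 463, 451 and 301 CPM at T0 and 3285 and 6391 CPM at T16 (3.58 ± 0.27). The negative regulators Socs3 (14.2, 13.9 and 8.62 CPM at T0 and 349.5 and 536 CPM at T16), Usp18 (3.07 ± 0.26) and Socs1 (2.84 ± 0.47, and 1.84 without T16 replicate 2) rose too, and Socs3 had the largest change of the list at 5.18 ± 0.26.

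Promoters of genes in these groups were read from RefSeq (GRCm38.p6), and 10566 of the genes tested matched by symbol. Windows of 250 bases before each start site were searched on both strands for 4 motifs, with N for any base: the interferon-stimulated response element (ISRE), GAAA and GAAA spaced by 2 bases; an NF-kB site (kB), GGG and TTTCC spaced by 2 bases; TTCNNNGAA, the STAT-binding GAS element; and TGANTCA, the AP-1 site. Matches of different motifs may overlap. The ISRE letters occurred in 2.98% of the 32851 promoters of the table, 2.9% of the 13436 promoters of genes tested, 5.39% of 2655 promoters of genes that rose and 2.19% of 2508 promoters of genes that fell. They occurred in 12 of 43 promoters of the antiviral list (27.9%) and 10 of 12 promoters of the guanylate-binding list (83.3%). The kB letters occurred in 1.41% of all promoters, 1.53% of those of genes tested, 2.37% of those of genes that rose, 1.24% of those of genes that fell, and 3 of 10 promoters of CXC chemokines (30%). GAS was in 7.02% of all promoters, 5.98% of those of genes tested, 6.52% of those of genes that rose and 5.38% of those of genes that fell, and AP-1 in 6.75%, 4.87%, 6.21% and 4.19% of the same 4 sets. These shares are descriptions, and a match of letters is not a measured binding site.

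The 6 windows below were chosen after the search, from genes of the antiviral, GTPase, interferon-inducible, chemokine, cytokine and acute-phase groups whose windows hold matches. They do not stand for their groups: the promoters of Il1b and Cxcl9, with larger changes than Il6 and Cxcl1, held none of the 4 motifs. Each is printed 5′ to 3′ on the gene's strand without any annotated exon, with matches of the 4 motifs in capitals.
Isg15, minus strand, chr4:156200819-156201068: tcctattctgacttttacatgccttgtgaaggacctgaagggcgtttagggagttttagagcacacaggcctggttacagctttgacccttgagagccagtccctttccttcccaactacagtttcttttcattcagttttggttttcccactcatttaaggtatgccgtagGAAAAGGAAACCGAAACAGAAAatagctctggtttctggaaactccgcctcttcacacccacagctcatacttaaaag
Gbp5, plus strand, chr3:142496684-142496899: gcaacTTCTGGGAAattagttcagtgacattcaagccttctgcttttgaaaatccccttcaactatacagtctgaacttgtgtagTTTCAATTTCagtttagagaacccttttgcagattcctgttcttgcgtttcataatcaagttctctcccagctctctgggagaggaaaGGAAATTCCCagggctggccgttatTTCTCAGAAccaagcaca
Ifi205, minus strand, chr1:174031811-174032005: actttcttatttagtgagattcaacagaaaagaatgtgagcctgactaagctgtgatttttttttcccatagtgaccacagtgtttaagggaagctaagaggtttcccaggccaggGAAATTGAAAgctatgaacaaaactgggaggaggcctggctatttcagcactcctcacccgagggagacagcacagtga
Cxcl1, plus strand, chr5:90890995-90891240: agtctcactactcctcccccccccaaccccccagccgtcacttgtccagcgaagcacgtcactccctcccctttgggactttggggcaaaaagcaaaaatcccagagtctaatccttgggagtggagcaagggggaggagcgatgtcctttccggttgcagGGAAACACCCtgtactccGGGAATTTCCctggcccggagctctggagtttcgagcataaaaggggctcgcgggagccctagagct
Il6, plus strand, chr5:30012864-30013113: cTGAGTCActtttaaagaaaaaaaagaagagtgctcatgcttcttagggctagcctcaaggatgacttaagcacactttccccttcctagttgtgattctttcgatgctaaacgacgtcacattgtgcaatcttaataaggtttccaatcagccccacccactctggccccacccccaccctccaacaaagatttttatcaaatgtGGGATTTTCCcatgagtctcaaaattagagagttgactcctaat
Saa3, minus strand, chr7:46715701-46715926: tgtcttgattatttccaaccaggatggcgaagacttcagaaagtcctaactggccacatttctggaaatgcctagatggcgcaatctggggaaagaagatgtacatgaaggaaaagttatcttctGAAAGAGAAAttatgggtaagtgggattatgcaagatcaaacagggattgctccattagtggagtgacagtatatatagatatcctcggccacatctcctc
Isg15 held 3 overlapping ISRE matches beginning 78, 72 and 66 bases before its start. Gbp5 held an ISRE at 165, a kB match at 77 and GAS matches at 245 and 52. Cxcl1 held kB matches at 89 and 71, Il6 a kB match at 44 and an AP-1 match at 249, Ifi205 an ISRE at 134 and Saa3 an ISRE at 125.

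Genes of MHC class I presentation, which displays peptides to CD8 T cells, rose nearly throughout. Of 22 class I genes, 21 rose and 0 fell in edgeR's test, at an unadjusted p under 0.05 and with DESeq2 (median 1.59). Not all of these 21 rises kept their call with either T16 library left out. The light chain B2m stood at 2113, 1709.8 and 2059 CPM at T0 and 5847 and 7036 CPM at T16 (1.72 ± 0.30) and the immunoproteasome subunit Psmb8 at 172, 179 and 136 CPM at T0 and 511 and 979 CPM at T16 (2.20 ± 0.23). The nonclassical H2-T22 (3.03 ± 0.22), H2-Q7 (3.65 ± 0.33) and H2-Q6 (2.40 ± 0.38) had larger changes but have near-identical relatives, so their split is uncertain. Of 14 class II genes, 1 rose and 4 fell (median -0.29, and 0.00 without T16 replicate 1); 1 to 3 fell without T0 replicate 1 or 3 or either T16 library. H2-Eb1 stood at 135, 107 and 72 CPM at T0 and 42.1 and 66.4 CPM at T16 (-0.95 ± 0.34, not called without T0 replicate 1 or 2 or T16 replicate 1, at -0.93 to -0.65) and the lysosomal reductase Ifi30 at 123, 129 and 135 CPM at T0 and 61.9 and 86.5 CPM at T16 (-0.80 ± 0.18). Of 22 costimulatory and checkpoint ligands, 13 rose and 3 fell. Cd274 (PD-L1) stood at 163, 142 and 145 CPM at T0 and 1016 and 964 CPM at T16 (2.72 ± 0.24), Cd40 rose by 2.75 ± 0.31 and Lgals9 by 3.03 ± 0.30.

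Arginine, nitric oxide and itaconate genes were among the largest changes, with 11 of 18 rising and 1 falling. Acod1 stood at 25.1, 14.3 and 8.62 CPM at T0 and 1959 and 2234 CPM at T16. Nos2, the inducible nitric oxide synthase, had an uneven baseline: it stood at 6.34, 0.179 and 0.119 CPM at T0 and 102 and 165 CPM at T16 (5.95 ± 0.91), with T0 replicate 1 apart from the others and a change of 9.83 without it. Arg1, which competes with Nos2 for arginine, was nearly absent at T0 (0.206, 0.0359 and 0.0476 CPM) and stood at 25.3 and 24.4 CPM at T16, a change of 8.02 ± 0.56 (edgeR adjusted p = 1.6e-09). The arginine transporter Slc7a2 rose by 4.72 ± 0.30. Of 26 glycolysis genes and HIF-1 targets, 19 rose and 2 fell (median 1.20). The glucose transporter Slc2a1 stood at 15.8, 21 and 18 CPM at T0 and 97.1 and 104 CPM at T16 (2.46 ± 0.22), the regulatory kinase Pfkfb3 rose by 3.20 ± 0.25 and the lactate exporter Slc16a3 by 2.21 ± 0.29. Hif1a, at 24.1, 28.6 and 25.5 CPM at T0 and 234 and 56.1 CPM at T16, was called at 2.48 ± 0.46 with both libraries but not without replicate 1 (1.11).

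Genes of the TCA cycle and oxidative phosphorylation lists showed mixed changes. The TCA cycle list also holds Idh1, whose enzyme lies outside mitochondria. Of 24 TCA cycle genes, 10 rose and 6 fell (6 and 6 without T0 replicate 3 or T16 replicate 1): the cytosolic isocitrate dehydrogenase Idh1 fell from 208, 202 and 197 to 71 and 55.6 CPM (-1.68 ± 0.16) and fumarase Fh1 by 1.1 on the log2 scale, whereas Mdh2 rose by 1.13 ± 0.15. Of 36 nuclear-encoded oxidative phosphorylation subunits, 11 rose and 0 fell in edgeR's test (1 fell at an unadjusted p under 0.05, and 0 with DESeq2), with a median of 0.25 that turned to -0.15 without T16 replicate 2 and to -0.22 with library totals; 7 rose without T0 replicate 2 or 3, 15 without T16 replicate 1 and 4 without T16 replicate 2. Atp5b rose by 1.18 ± 0.22. Counts from mitochondrial genes made up 1.38 to 1.68% of the T0 libraries and 0.389 and 0.233% of the T16 libraries. They made up 0.355, 1.822 and 1.423% of the untreated libraries labelled KO and 0.474, 1.104 and 0.464% of the WT T6 libraries. The share thus also varied between libraries of the same group.

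The prostaglandin and leukotriene genes split: 6 of 20 rose and 8 fell. The inducible cyclooxygenase Ptgs2 stood at 1.68, 1.04 and 1 CPM at T0 and 33.4 and 9.27 CPM at T16 (4.12 ± 0.48) and Ptges at 3.6, 3.05 and 3.48 CPM at T0 and 307 and 373 CPM at T16, while the degrading Hpgd, the transporter Slco2b1 and Ltc4s were among the genes that fell most. In iron handling, 8 of 20 genes rose and 5 fell. The transferrin receptor Tfrc fell from 409, 283 and 275 to 50.1 and 21.2 CPM (-3.17 ± 0.36), and the ferritin heavy chain Fth1, which stores iron, rose from 5787, 3979.5 and 5208 to 26684 and 46813 CPM (2.88 ± 0.27). Heme oxygenase Hmox1 stood at 733, 503 and 762 CPM at T0 and 3637 and 4347 CPM at T16 (2.58 ± 0.23). The lipid regulators diverged, with Pparg at -2.45 ± 0.20 and the LXR gene Nr1h3 at 2.67 ± 0.27. Of 27 LXR and PPARg targets and lipid handling genes, 4 rose and 7 fell; the fatty acid chaperone Fabp4 fell (-1.72 ± 0.33), and the cholesterol exporter Abca1 was not called, at 221, 207 and 257 CPM at T0 and 567 and 102 CPM at T16 (0.55, -1.16 without replicate 1 and 1.32 without replicate 2, which was called). Of 23 cholesterol synthesis genes, 0 rose and 3 fell in edgeR's test at adjusted p under 0.05, while 3 rose and 4 fell at an unadjusted p under 0.05 and 2 rose and 2 fell with DESeq2. Counts that rose and fell were 2 and 0 without T0 replicate 2, 1 and 2 without T16 replicate 1, and 1 and 0 without T16 replicate 2.

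Surface and identity genes moved in both directions. Of 32 macrophage identity genes, 14 rose and 6 fell. The F4/80 gene Adgre1 stood at 922, 811 and 723 CPM at T0 and 4714 and 3289.8 CPM at T16 (2.29 ± 0.39), the high-affinity Fc receptor Fcgr1 at 386, 454 and 289.8 CPM at T0 and 2081 and 3728 CPM at T16 (2.95 ± 0.23) and the sialic acid lectin Siglec1 rose by 2.41 ± 0.46. The growth factor receptor Csf1r, at 2693, 2555 and 1975 CPM at T0 and 1933 and 1605 CPM at T16, was not called (-0.44 ± 0.22), nor were Cd68 (0.65 ± 0.36) or Lyz2 (0.12 ± 0.24), so the defining macrophage markers were present in all 5 libraries. Of 29 C-type lectin and scavenger receptor genes, 9 rose and 5 fell (3 without T0 replicate 1 or T16 replicate 2). The scavenger receptors Marco (25.4, 63.1 and 11.2 CPM at T0 and 767 and 2061 CPM at T16) and Msr1 (101, 93 and 74.7 CPM at T0 and 1050.2 and 998 CPM at T16) and the mycobacterial glycolipid receptor Clec4e (872 and 618 CPM at T16, 5.34 ± 0.24) rose. The beta-glucan receptor Clec7a, at 129, 107 and 104 CPM at T0 and 12.4 and 9.53 CPM at T16, fell (-3.37 ± 0.22), as did the mannose receptor Mrc1, at 234, 255 and 175 CPM at T0 and 44.2 and 25.6 CPM at T16 (-2.66 ± 0.31). Alternative activation genes, which interleukin-4 induces, split 5 up and 4 down of 17: Arg1 and the interleukin-4 receptor chain Il4ra (2.93 ± 0.24) rose while Clec10a and Clec7a fell.

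Other secreted and signalling groups rose in part. Of 25 acute-phase and secreted defence genes, 14 rose and 2 fell, including Lcn2, which binds bacterial siderophores (31.3, 36 and 17.9 CPM at T0 and 378 and 972 CPM at T16), and ceruloplasmin Cp (4.40 ± 0.30). Of 33 inflammasome and cell death genes, 24 rose and 3 fell (median 1.26). Nlrp1b, 1 of those 3, fell by 2.63 on the log2 scale. Of 15 purinergic and adenosine receptors, 9 rose and 3 fell. The adenosine receptors Adora2a (0.993, 1.22 and 0.976 CPM at T0 and 23.2 and 37.8 CPM at T16, 4.85 ± 0.29) and Adora2b (2.74 ± 0.19) rose, and the ATP-degrading Entpd1 fell (-1.71 ± 0.19). Of 21 matrix metalloproteinases and inhibitors, 9 rose and 3 fell, led among the named members by the membrane protease Mmp14 at 25.4, 41.2 and 18.4 CPM at T0 and 486 and 529 CPM at T16 (4.16 ± 0.25). Ets2 (2.0 ± 0.19), Etv5 (2.69 ± 0.26) and Trib1 (1.74 ± 0.25), genes of the C/EBP and COP1 pathway (Cop1 is a ubiquitin ligase to which the Stk40 protein binds), rose, and 6 of 19 members of that list rose and 3 fell.

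Most mitosis genes fell. Of 28 mitosis genes, 1 rose and 22 fell (median -1.37), beside 17.2% of all genes. Not all of these 22 falls kept their call with either T16 library left out. The centromere histone Cenpa stood at 54.7, 50.2 and 42.2 CPM at T0 and 3.1 and 6.46 CPM at T16 (-3.37 ± 0.30), the cytokinesis kinesin Kif23 at 8.39, 12.8 and 10.9 CPM at T0 and 1.55 and 1.35 CPM at T16 (-2.87 ± 0.32) and the proliferation marker Mki67 at 16.3, 29.2 and 26.1 CPM at T0 and 13.1 and 7.43 CPM at T16 (-1.21 ± 0.24). Of 32 DNA replication genes, 5 rose (15.6%, beside 18.8% of all genes tested) and 0 fell in edgeR's test (3 fell at an unadjusted p under 0.05, and 0 with DESeq2), and that list turned to 1 rising and 8 falling with library totals. Its counts were 9 and 0 without T16 replicate 1, 3 and 0 without T16 replicate 2 and 3 and 2 without T0 replicate 1. Mcm5, a subunit of the replicative helicase, stood at 7.09, 12.3 and 8.26 CPM at T0 and 22.2 and 31.8 CPM at T16 (1.55 ± 0.29). In bulk RNA, fewer cells of a type or state and less RNA per cell cannot be told apart. Of 34 cytosolic ribosomal protein genes, 0 rose and 16 fell in edgeR's test (median -0.98), and 5 fell without T16 replicate 1 and 19 without replicate 2. At an unadjusted p under 0.05 0 rose and 23 fell, and with DESeq2 0 and 19. These genes have many near-identical copies, which makes uniquely aligned counts uncertain. Of 16 circadian clock genes, 2 rose and 7 fell, including Per3 (-1.95 ± 0.27) and the repressors Bhlhe40 (-2.01 ± 0.45) and Bhlhe41 (-1.90 ± 0.41), while Nfil3 rose (1.83 ± 0.19).

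**Figure D3:**
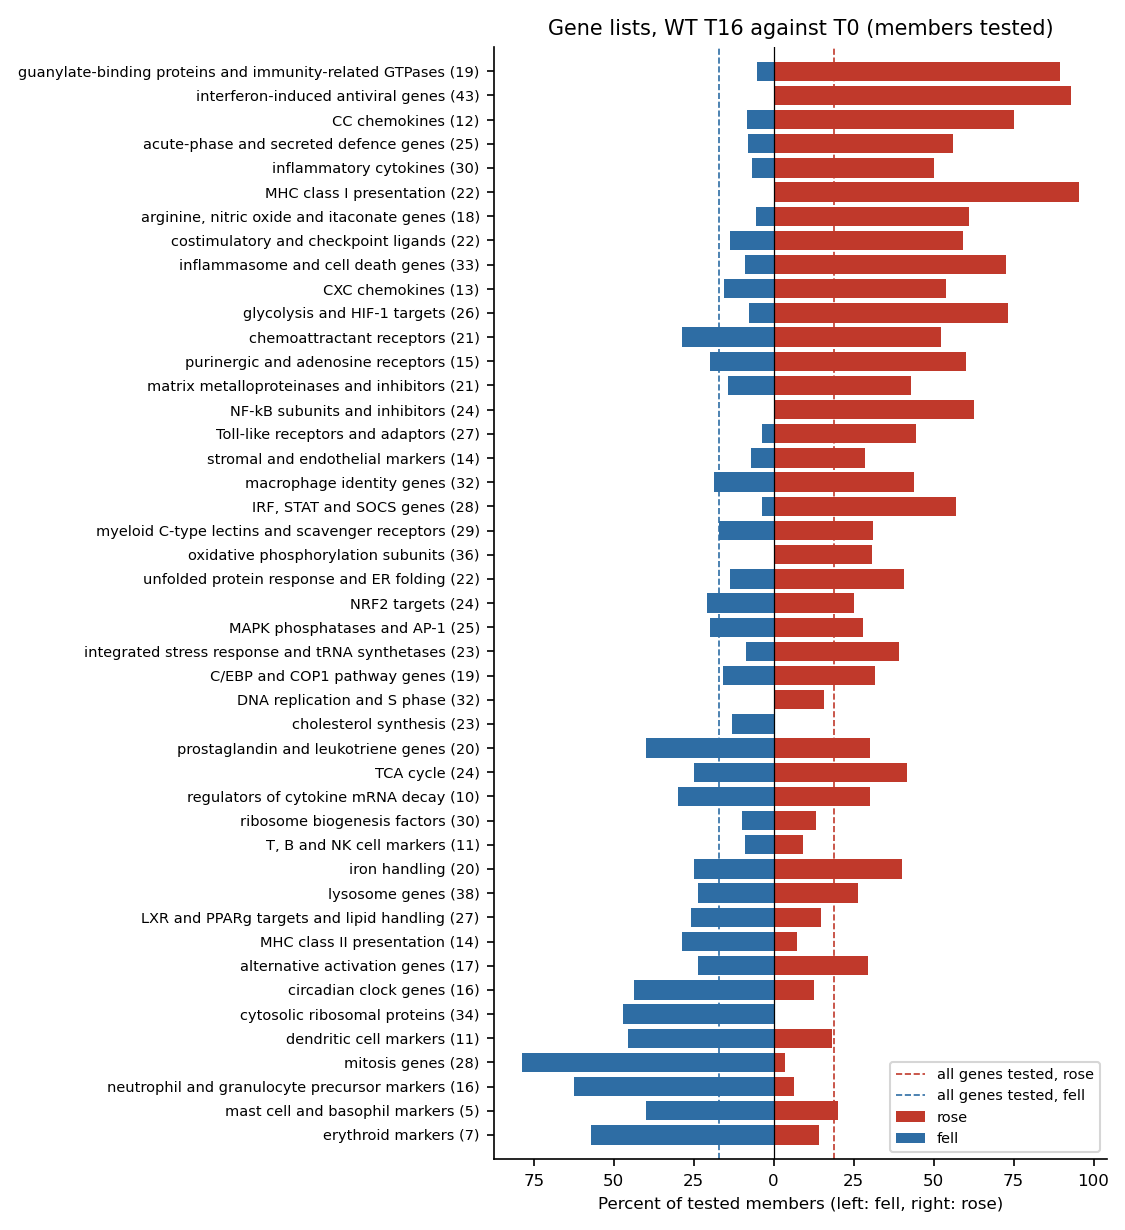
Share of the tested members of each gene list that rose (right, red) or fell (left, blue) at T16 against T0 in WT libraries, ordered by the list's median log2 fold change, with the number tested in parentheses and dashed lines at 18.8% and 17.2%, the shares of all genes tested. The antiviral, GTPase and MHC class I lists have the highest shares that rose, and the mitosis list has 22 of 28 members that fell.

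Markers of other cell types were checked beside these groups. Granulocyte precursor markers were present at T0 and 10 of 16 fell while 1 rose (summed over the list, 583, 687 and 367 CPM at T0 and 534 and 1318 CPM at T16). Lcn2, the member that rose, took 378 and 972 CPM of the T16 sums, and 5 fell without T16 replicate 1. The granule protein Ngp stood at 125, 154 and 80.4 CPM at T0 and 32.3 and 68.9 CPM at T16, not called without T16 replicate 1 (-0.80), and Ltf at 98.7, 110.0 and 61.3 CPM at T0 and 23.9 and 45.2 CPM at T16, and the protease Elane at 9.04, 6.88 and 5.09 CPM at T0 and 0.735 and 1.91 CPM at T16. The mature neutrophil marker Ly6g was at most 0.502 CPM in any library. Stromal and endothelial markers summed to 138, 355 and 278 CPM at T0 and 493 and 518 CPM at T16, and 4 of 14 rose (2 without T16 replicate 1) and 1 fell. The collagen Col1a1 stood at 6.44, 62.5 and 40.9 CPM at T0 and 159.7 and 178 CPM at T16 and was not called (2.21 ± 0.92), and Col3a1 at 2.67, 15.8 and 9.26 CPM at T0 and 43.7 and 46.5 CPM at T16 was (2.29 ± 0.78), though not without T0 replicate 1 or 3 or either T16 library (1.87 to 2.33). The T cell genes Cd3e and Cd3d and the NK gene Ncr1 were at most 0.103 CPM, with 1 of 11 T, B and NK cell markers tested rising and 1 falling. Of 7 erythroid markers, Tfrc among them, 1 rose and 4 fell (2 without T0 replicate 1 or either T16 library). Of 11 dendritic cell markers 2 rose and 5 fell (3 without T0 replicate 2 and 2 without T16 replicate 2); the interferon-induced Bst2 took most of their summed level, and Flt3 was at most 1.18 CPM. Of 5 mast cell and basophil markers 1 rose and 2 fell, and Cpa3 was 0 at T16. The part of these cells in the changes of the secreted proteases and matrix genes was not tested.

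Among the 10 genes that took the most reads at T16, several had high counts at T0 as well. The lysosomal cathepsins Ctsb (15927, 15018 and 15805 CPM at T0 and 12394 and 15530.3 CPM at T16) and Ctsd (10419.7, 9184 and 9121 CPM at T0 and 6298 and 9169.8 CPM at T16), the lysozyme gene Lyz2 (13357, 13357 and 9957 CPM at T0 and 11338 and 15158 CPM at T16) and the saposin precursor Psap (11318, 12229.5 and 11329 CPM at T0 and 7797 and 8369.7 CPM at T16) were 4 of these 10, and none of the 4 was called by edgeR. Saa3, Ccl5, Fth1 and B2m were among the 10 too, and the progranulin gene Grn rose by 0.60 ± 0.18 (0.25 and not called without replicate 2).

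The T6 and T32 libraries place these levels in time. Between T16 and T6, which compares 2 with 3 WT libraries, 3587 genes were higher at T16 (22.7%) and 3080 lower (19.5%). Between T32 and T16, 213 genes were higher at T32 (1.35%) and 247 lower (1.57%). This second count rested on the T16 libraries: 460 genes in all were called, 3012 without T16 replicate 1 and 91 without replicate 2. Many inflammatory genes stood lower at T16 than at T6. Tnf was at 1386, 1538 and 1360.5 CPM at T6 and 118, 95.9 and 173 CPM at T32, a log2 difference between T16 and T6 of -2.87 ± 0.29. Nos2 stood at 3840.1, 2862 and 3989 CPM at T6 and Il6 at 59.7, 63 and 90.5 CPM at T6, each above both T16 libraries. Of the cytokine list, 21 of 30 were lower at T16 than at T6 and 1 was higher. Of 24 NF-kB genes 21 were lower and 1 higher, and of 43 antiviral genes 32 were lower and 0 higher in edgeR's test, with 0 higher also at an unadjusted p under 0.05 and with DESeq2. Saa3 (11954, 22933 and 6342 CPM at T6 and 15659.9, 23578 and 22706 CPM at T32) was higher at T16 than at T6 by 1.34 ± 0.46, while Ccl5 (8702, 6350.1 and 5817 CPM at T6) was not called between these times (0.81 ± 0.36).

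Several genes were higher at T16 than at T6. Arg1 was highest at T16 among the 4 times, with 0.734, 1.59 and 1.07 CPM at T6 and 9.93, 3.78 and 7.07 CPM at T32, and differed from T6 by 4.51 ± 0.44 and from T32 by -1.84 ± 0.37 (T32 minus T16). Fpr1 stood at 328, 145 and 157 CPM at T6 and 414, 469 and 489 CPM at T32 and was higher at T16 than at T6 by 1.05 ± 0.40. Marco (295, 181 and 69.6 CPM at T6), Hmox1 (888, 1049.6 and 998 CPM at T6) and Fth1 (17455, 9860.2 and 14995 CPM at T6) were also below their T16 levels at T6. Of 32 DNA replication genes, 19 were higher and 3 lower at T16 than at T6, including Mcm5 (8.27, 4.32 and 5.93 CPM at T6). S100a4 was at 94.1, 231 and 144 CPM at T6 and 5.59, 4.05 and 2.76 CPM at T32, with a log2 difference between T16 and T6 of -3.35 ± 0.55. Slco2b1 was at 0.667, 0.952 and 1.12 CPM at T6. Il1rn (371, 297 and 581 CPM at T32), Il1b (134, 170.2 and 159 CPM at T32) and Ptges (81.1, 69.5 and 99.6 CPM at T32) were lower at T32 than at T16, and Mrc1 (114, 190.1 and 124 CPM at T32) and Tfrc (111, 178 and 66 CPM at T32) were higher.

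**Figure D4:**
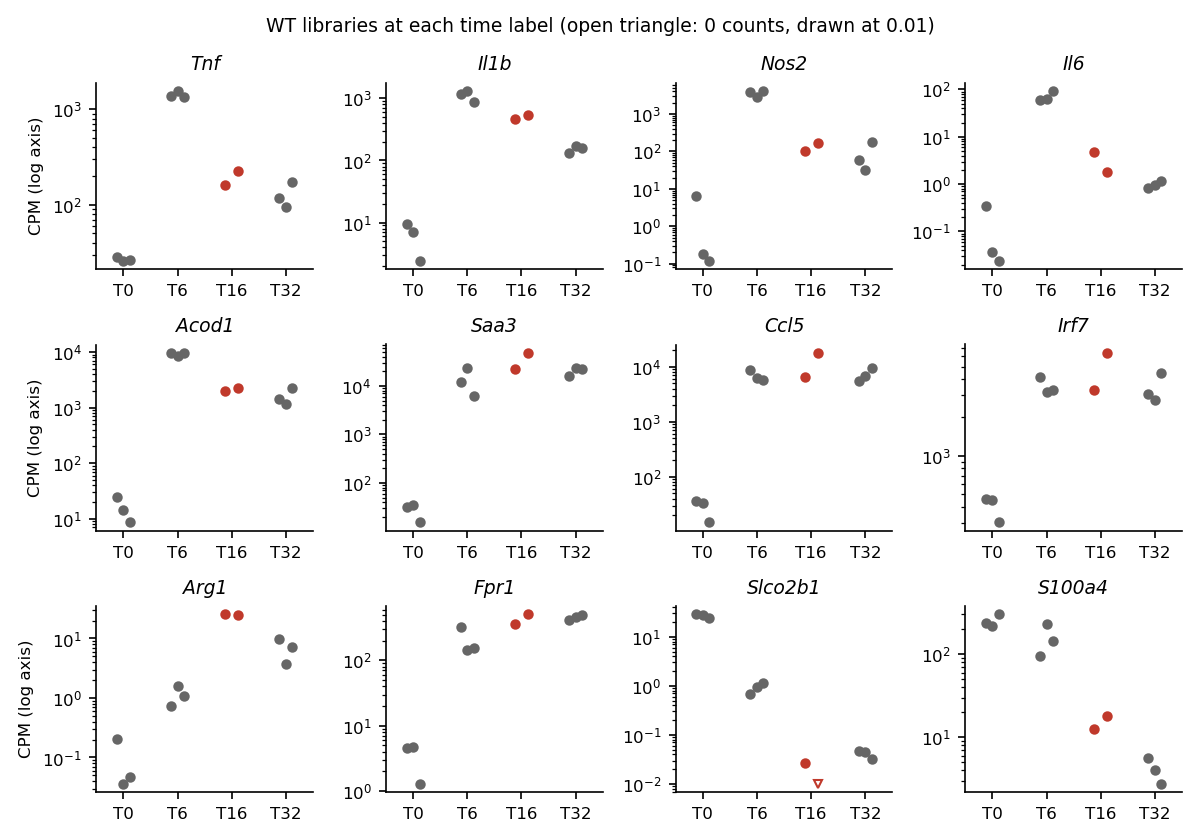
TMM-scaled CPM on a log axis for 12 genes in each WT library at T0, T6, T16 (red) and T32; the open triangle marks 0 counts, drawn at 0.01. Tnf, Il1b, Nos2, Il6 and Acod1 are highest at T6, Arg1 is highest at T16, and S100a4 is lowest at T32.

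The same contrast in libraries labelled KO shares no library with the WT contrast. The T0 and T16 libraries labelled KO held 423.13 to 592.24 CPM of Xist and at most 0.07 CPM of the Y-linked genes. Y-linked transcripts were thus present only in WT libraries, T0 replicate 2 and T16 replicate 2. In differences between the genotypes, the label and the state of Y-linked transcripts cannot be fully told apart. Stk40 itself, the targeted gene, stood at 52.5, 52.2 and 39.7 CPM at T0 and 96 and 143 CPM at T16 in WT (1.31 ± 0.17). In the libraries labelled KO it stood at 51.7, 61.3 and 56.5 CPM at T0 and 166, 155 and 162 CPM at T16. These levels overlapped those of WT at T0 and lay above both WT libraries at T16. The total Stk40 count thus shows no loss in the libraries labelled KO. Where the targeted allele interrupts the gene is not given in the labels. In these libraries 3226 genes rose (20.4%) and 3677 fell (23.3%). Of the 2970 genes that rose in WT, 2253 were called higher in the libraries labelled KO, which is 75.9% of the WT list and 69.8% of the other, and 5 were called lower. Of the 2710 that fell, 2138 were called lower, 78.9% of the WT list and 58.1% of the other, and 2 were called higher. For the antiviral list the counts were 39 risen of 43 with a median of 1.36, beside 2.28 in WT. For the oxidative phosphorylation list they were 2 risen and 10 fallen with a median of -0.25, beside 0.25 in WT. The difference of the 2 responses was called for 1 antiviral gene and 0 oxidative phosphorylation genes. For Isg15, Isg20, Oasl1, Ifit2 and Bst2 every T0 library labelled KO stood above every WT T0 library. Oasl1 was at 243, 180 and 213 CPM there and 57.7, 65 and 37.4 CPM in WT. At T16 it was at 1297, 1199 and 1224 CPM and, in WT, 635 and 1076 CPM. The T0 gap over the whole antiviral list was not tested.

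The difference of the 2 responses was called for 11 genes (0.0697% of those tested), 4 higher (0.0253%) and 7 lower (0.0444%) in the libraries labelled KO. Aqp9, an aquaglyceroporin, changed by 2.34 ± 0.27 there and by -0.86 ± 0.31 in WT (a WT call lost without T0 replicate 1 or 3 or either T16 library, at -0.98 to -0.72), a difference of 3.20 ± 0.41 (edgeR adjusted p = 0.0011), with 3.67, 2.31 and 3.8 CPM at T16 against 0.789 and 0.676 in WT. The tetraspanin Tspan13 fell in WT (25.3, 25.5 and 31.7 CPM at T0 and 6.45 and 6.83 CPM at T16) and stood at 30.3, 30.5 and 39.2 CPM at T0 and 37.1, 38.4 and 44.9 CPM at T16 in the libraries labelled KO, a difference of 2.32 ± 0.27 (edgeR adjusted p = 0.00073). The Schlafen gene Slfn1 rose in both, by 4.12 ± 0.23 in WT and 1.73 ± 0.20 in the other, a difference of -2.38 ± 0.29. The count of 11 was not stable: it was 1061 without T16 replicate 1 and 5 without replicate 2, and 219 with DESeq2. Without T16 replicate 1, the only WT T16 library left holds Y-linked transcripts and is set against libraries labelled KO without them. A gene called in 1 genotype and not in the other, apart from these 11, is not shown to differ.

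**Figure D5:**
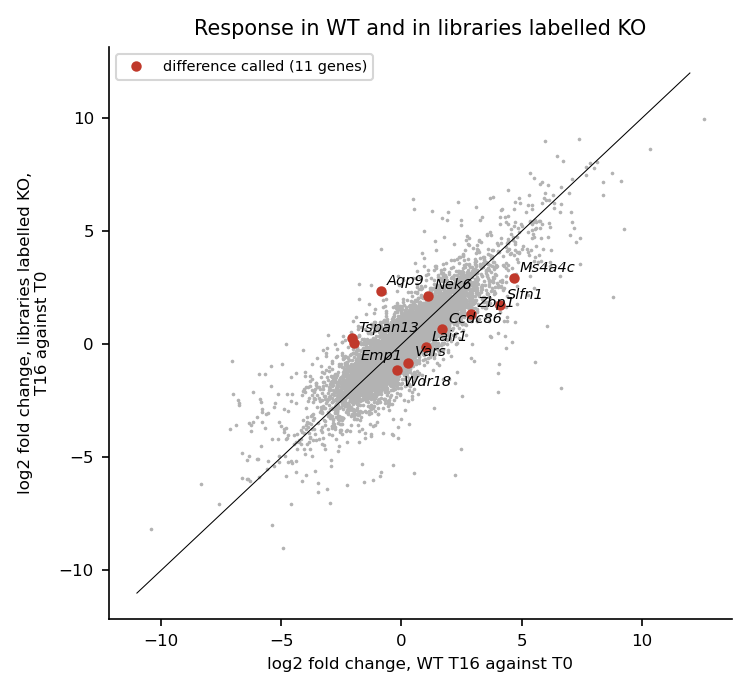
Log2 fold change of T16 against T0 in WT libraries (horizontal axis) and in libraries labelled KO (vertical axis) for all 15782 genes tested; the line marks equal values and red points the 11 genes whose difference was called. Aqp9, Tspan13, Emp1 and Nek6 lie above the line, and the other 7, among them Slfn1 and Ms4a4c, below it.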

How the data were processed

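Polyadenylated RNA of 23 libraries was sequenced as single-end reads from unstranded TruSeq libraries, per the labels' protocols. The authors aligned reads with GSNAP to GRCm38, per the submitters' processing notes, and deposited raw counts of reads aligning uniquely to each gene model, per the file headers. The deposited RPKM table and the authors' per-library tables were not used for values. From the counts of 52636 genes, 15782 passed edgeR's filterByExpr and were tested in 1 fit to the 23 libraries, which estimated 1 mean for each pair of genotype and time (edgeR 4.0.16, R 4.3.3, TMM scaling, robust quasi-likelihood test, Benjamini-Hochberg adjustment, called under 0.05). SEs were computed from the log2 fold change and the F statistic. Alternatives were library totals, DESeq2 1.42.0, no filter, smaller fits, a covariate and leaving out each of the 5 WT T0 and T16 libraries in turn (no other library was left out). The 5 libraries held 20224744 to 32733296 counts, and intervals and floors cover counting error only.

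Genes named are the 15 largest changes in each direction among called genes of at least 5 CPM whose groups do not overlap, up to 4 called members of each of 45 gene lists, the 10 highest levels at T16, the widest gaps between the T16 libraries, cell type markers, the lowest p of the genotype difference and core LPS genes; Zbp1's genotype difference is named after its value was seen. Gene lists and named genes were chosen with earlier results of these data known. Coordinates come from GENCODE M21 (GRCm38) and promoters from RefSeq. The procedure was tested on simulated data. It recovered 52% of 100 genes changed 2-fold and 92% of 100 genes changed 4-fold, with 8 false calls among 14896 unchanged genes. A gene that was not called may therefore still have changed. The simulated libraries held no trend with gene size, so the opposite trends of the 2 T16 libraries were not covered. Only the genes counted above were changed, and only in WT T16, while 36% of the genes tested were called in the data. The rates of recovery and of false calls may therefore not hold for these data. Some genes that the naming rule selects are not reported here.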

Additional observations from a re-analysis of the deposited data

Results flagged for a closer look

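The response to LPS at T16 differed between WT libraries and the libraries labelled KO for 11 genes, by edgeR's test of the difference of the 2 fold changes at a Benjamini-Hochberg adjusted p under 0.05. Differences are KO minus WT on the log2 scale. The groups hold 2 or 3 libraries each, so no group was tested for a single library apart from the others. Only the WT groups held libraries with Y-linked transcripts, as given above.

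The difference was positive for 4 genes. It was 3.20 for Aqp9, an aquaglyceroporin, which was at 0.652, 0.623 and 0.654 CPM at T0 and 3.67, 2.31 and 3.8 CPM at T16 in the libraries labelled KO, and 2.32 for the tetraspanin Tspan13. It was 2.01 for the epithelial membrane protein gene Emp1, which stood at 107, 147 and 149 CPM at T0 and 36.6 and 32.8 CPM at T16 in WT and at 162, 120.0 and 183 CPM at T0 and 171, 132 and 181 CPM at T16 in the libraries labelled KO. It was 1.03 for the kinase Nek6, which rose in both, from 13.9, 15.6 and 16.6 to 34.2 and 32.9 CPM in WT and from 10.3, 9.77 and 8.81 to 40.1, 40.9 and 47.4 CPM in the other.

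The difference was negative for 7 genes. For the interferon-inducible Slfn1 it was -2.38, for Ms4a4c -1.72 and for the nucleic acid sensor Zbp1 -1.52. For these 3 genes every T0 library labelled KO stood above every WT T0 library, a gap that was not tested: Slfn1 stood at 189, 115 and 166 CPM there and 24, 19 and 17.5 CPM in WT, Ms4a4c at 246, 182 and 221 and 39.3, 51.9 and 33.9 CPM, and Zbp1 at 316, 257 and 279.9 and 90.7, 128 and 64.4 CPM. At T16 Slfn1 was at 556, 484 and 523 CPM in the libraries labelled KO and 298 and 403 CPM in WT, and Zbp1 at 771, 702 and 713 and 582 and 809.8 CPM. The difference was -1.13 for the inhibitory receptor gene Lair1, which rose from 43.4, 49.1 and 41.5 to 83 and 97.9 CPM in WT and was at 80.9, 77.6 and 90.8 CPM at T0 and 74.1, 76.9 and 79.4 CPM at T16 in the other. It was -1.10 for the valyl-tRNA synthetase Vars, -1.0 for the nucleolar Ccdc86 and -0.94 for Wdr18, a ribosome maturation factor. The 11 genes are chosen by the test itself, and their number was 1061 without WT T16 replicate 1, 5 without WT T16 replicate 2 and 4 without WT T0 replicate 3.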

How the results depend on the processing

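The numbers of genes that rose and fell at T16 stayed within 1.5 times of 2970 and 2710 in each setting except library totals in place of TMM (1593 and 5639). They were 2500 and 2228 with no filter on low counts, 2104 and 2039 in a fit to the 5 libraries alone, 3215 and 2851 with DESeq2 and 2928 and 2735 with Y-linked transcripts as a covariate. Leaving out single libraries gave 2536 to 2679 genes that rose and 1893 to 2711 that fell. In every one of the 13 alternative settings, 1290 of the 2970 (43.4%) and 1148 of the 2710 (42.4%) were called. The difference of the T16 response between genotypes, called for 11 genes, was called for 19 with library totals, 25 with the Y-linked covariate, 219 with DESeq2, 21 with the size trend removed, and 4 to 1061 without single libraries (4 without T0 replicate 3). T32 against T16, at 460 genes, gave 888 with DESeq2, 137 in the 11 WT libraries and 91 to 3012 without single libraries. T16 against T6, at 6667, stayed between 5411 and 7340. The cause of these moves was not tested.

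Among genes named, Lyz2 (0.12) turned to -0.34 with library totals and ranged from -0.10 to 0.31 without single libraries. Xist (-0.24) turned to 0.17 with the covariate and ranged from -10.94 to 0.76. Ddx3x (0.18) turned to -0.17 with library totals and to -0.0556 with the replicate block, and ranged from -1.98 to 1.01. Vars turned to -0.17 with library totals. Without single libraries Tlr4 ranged from -0.71 to 0.24, Il10 from -0.044 to 1.86, Abca1 from -1.16 to 1.32, Usp9x from -0.83 to 1.98 and Gadd45g from -0.83 to 1.24. For the genes given with ranges the ends come from the 2 T16 libraries.

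Some alternatives were chosen after seeing the data. Removing each library's trend with gene size gave 3159 and 3129. The replicate numbers follow sample order and were not taken to pair cultures: the WT library with Y-linked transcripts is number 2 at T0 and T16, 1 at T6 and 3 at T32. With the replicate block 3089 genes rose and 2976 fell, 2911 and 2651 of them shared with the fit without it, and the calls of Il10 and of Aqp9 in WT were lost. This block joined WT libraries with and without Y-linked transcripts under the same number, so it does not test a pairing of cultures. Differences involving other groups could not be computed from the 5 libraries alone, nor the genotype difference from the 11 WT libraries. The T16 group of 2 libraries limits the precision, and where 1 of them is left out the other is assumed to vary like the other groups.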

Other observations

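Genes of protein folding in the endoplasmic reticulum rose in part at T16. Of 22 such genes 9 rose and 3 fell by edgeR's test, beside 18.8% and 17.2% of all genes; with library totals in place of TMM 5 rose and 8 fell, and 1 fell without T0 replicate 1 or 3 or T16 replicate 2. The chaperone Hspa5 (BiP) stood at 360.5, 485 and 412 CPM at T0 and 823 and 812 CPM at T16 (0.97 ± 0.20), the calcium-binding chaperone Calr at 255, 332 and 267 CPM at T0 and 869 and 1217 CPM at T16 (1.87 ± 0.33) and Sdf2l1, a partner of BiP, at 11.3, 15.3 and 12 CPM at T0 and 36.1 and 49.8 CPM at T16 (1.73 ± 0.39). Among 23 genes of the integrated stress response and tRNA synthetases, 9 rose and 2 fell (3 and 6 with library totals). Mthfd2, a mitochondrial folate enzyme, stood at 16.7, 17.9 and 19.9 CPM at T0 and 67.7 and 79.5 CPM at T16 (2.02 ± 0.15), and the amino acid transporter chain Slc3a2 rose by 1.01 ± 0.21, whereas the factor Atf5 stood at 158, 137 and 142 CPM at T0 and 59.3 and 82.3 CPM at T16, a fall that was not called without T0 replicate 1 or T16 replicate 1. Of the 2 falls in that list, 0 were called with either T16 library left out.

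Of 24 targets of NRF2, a factor that responds to oxidative stress, 6 rose and 5 fell (5 and 7 with library totals). In this list 25% rose and 20.8% fell, in the lysosome list below 26.3% and 23.7%, and in the ribosome biogenesis list 13.3% and 10%. Over all genes tested the shares were 18.8% and 17.2%. Besides Hmox1 and Fth1, the cystine transporter Slc7a11 rose, at 4.28, 3.48 and 3.95 CPM at T0 and 19.8 and 9.38 CPM at T16 (1.91 ± 0.25, and 1.26 without T16 replicate 1), while the epoxide hydrolase Ephx1 fell from 75.1, 57.3 and 42.9 to 6.8 and 9.05 CPM (-2.88 ± 0.29). Of 38 lysosome genes 10 rose and 9 fell (4 and 23 with library totals, and 6 and 7 without T16 replicate 2). The dipeptidyl peptidase Ctsc stood at 238, 273 and 149 CPM at T0 and 1862 and 1906 CPM at T16 (3.10 ± 0.29) and the proton pump subunit Atp6v0d2 at 163, 106 and 170.4 CPM at T0 and 21.8 and 13 CPM at T16 (-3.07 ± 0.47). Of 30 ribosome biogenesis factors 4 rose and 3 fell (1 and 11 with library totals), with Bop1 at 0.97 ± 0.14 and Gnl3 at -0.81 ± 0.28, which was not called without T0 replicate 1 or 3 or either T16 library. With either T16 library left out, 1 of these 4 rises and 0 of the 3 falls were called.

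Some genes of at least 20 CPM at T16 differed widely between the 2 T16 libraries, given as a description. Apart from Xist, the largest excess in replicate 1 was in AC151730.1 (47.8 and 4.28 CPM, not called without replicate 1), the RNA helicase gene Ddx3x (118 and 14.9 CPM, against 52, 50.1 and 74.3 at T0) and the deubiquitinase Usp9x (69.4 and 9.95 CPM, against 15.2, 16.4 and 21.3 at T0). The T0 library that holds Y-linked transcripts, replicate 2, lay within or near the range of the other T0 libraries for Ddx3x and Usp9x. The largest excess in replicate 2 was in the adaptor gene Scimp (8 and 45 CPM, against 0.822, 1.58 and 0.524 at T0), followed by Ccl12, Gadd45g (16.2 and 67.9 CPM, against 29.8, 23.8 and 32.8 at T0) and Ccl4. Ddx3x, Usp9x and Gadd45g were not called between T0 and T16, and Gadd45g was without T16 replicate 1 (1.24). Scimp changed by 4.80 ± 0.62, and by 3.08 without T16 replicate 2.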
